A study of Mus musculus with 24 samples.

Results

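The major histocompatibility complex (MHC) genes examined here are 10 genes of antigen presentation, chosen by name: the class II chain genes H2-Aa, H2-Ab1 and H2-Eb1, the class II loading genes Cd74, H2-DMa and H2-DMb1, the class II transactivator gene Ciita, the class I heavy chain genes H2-K1 and H2-D1, and B2m. They were chosen with earlier results of these data known. The members were 10 of the 54532 genes in the count table, and all 10 passed the filter on low values. RNA came from the whole kidney of 24 C57BL/6 mice (C57BL/6 J in the study's methods) aged 18 days, and each mouse gave 1 library. All 24 mice carried the Pkd1 RC allele, a missense allele that yields less mature polycystin-1. In RC/+ mice (n = 3) the other Pkd1 allele was functional, in the study's breeding scheme a floxed allele without Cre. In RC/- mice (n = 5), labelled cystic, the other allele was a floxed one inactivated by Ksp-Cre, a transgene active in kidney tubule epithelium, so that Cre was carried by the cystic groups and not by the controls and the effects of Cre and of Pkd1 loss cannot be told apart. In the D18 and D53 groups the RC allele also lacked the miR-17 binding motif of the Pkd1 transcript, deleted by genome editing. RC/+ D18 (n = 3) and RC/- D18 (n = 5) descended from founder 3, and RC/+ D53 (n = 3) and RC/- D53 (n = 5) from founder 2, so each edited allele was represented by 1 founder. The study asked whether removing this motif from the RC allele changes the cystic kidney; here the question is what happened to RNA for antigen presentation.

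MHC class II molecules are dimers of an alpha and a beta chain that show peptides from engulfed material to CD4 T cells, and they are carried mainly by dendritic cells, B cells and macrophages. The invariant chain, made from Cd74, occupies the groove until H2-DM, a dimer of the H2-DMa and H2-DMb products, exchanges a remnant of it for peptide. The class II transactivator CIITA binds no DNA itself but joins factors that sit on a conserved module of X and Y boxes upstream of class II genes. Class I molecules pair a heavy chain with beta-2 microglobulin, are made by nearly every nucleated cell and show peptides from inside the cell to CD8 T cells. Interferon gamma is known to raise both classes, in tubule epithelium too.

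The upstream sequences are shown because they carry the shared module through which these genes are known to be controlled together. The RefSeq promoter table (GRCm38.p6) was searched over the 250 bases before each start site, on the gene's strand, for TGACG or TGATG (letters of the X2 box) followed after 10 to 30 bases by ATTGG (letters of the Y box). The pair was found upstream of 6 of the 7 members with an entry, and of 279 of all 32851 windows (0.849%). H2-Ab1, Cd74 and Ciita had no entry and were not examined. ATTGG alone, on either strand, was in 33.8% of windows. Capitals mark the paired letters, and each stretch is written 5′ to 3′ on the strand of its gene.
H2-Aa, chr17:34287859-34287909, minus strand: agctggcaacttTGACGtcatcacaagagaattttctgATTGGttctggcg
H2-Eb1, chr17:34305772-34305820, plus strand: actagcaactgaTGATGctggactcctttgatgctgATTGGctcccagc
H2-DMb2, chr17:34145122-34145171, plus strand: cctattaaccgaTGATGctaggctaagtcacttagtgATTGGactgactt
H2-K1, chr17:34000351-34000400, minus strand: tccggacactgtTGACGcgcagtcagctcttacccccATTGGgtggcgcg
B2m, chr2:122147597-122147646, plus strand: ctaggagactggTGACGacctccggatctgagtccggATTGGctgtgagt
The gap between the letters was 21 bases in H2-Aa, 19 in H2-Eb1 and 20 in each of the others. Within the 10 to 30 bases that the search allowed, these 2 class II chain genes, the class I heavy chain genes and B2m thus shared nearly the same spacing. H2-DMb2, a near copy of H2-DMb1 that is no member, is printed because the RNA of the pair differed below. The pair of H2-DMb1 and that of H2-D1 are not printed because an annotated exon of a longer transcript covers them. Where a window held 2 pairs (H2-Eb1, H2-DMb1 and H2-D1), the pair closest together is given. The pair was not found in either window of H2-DMa, which says only that these letters are not there. AANNGAAA, the core of an interferon regulatory factor element, was present on either strand in the windows of H2-Aa, H2-K1, H2-D1 and B2m and in 21.3% of all windows. GGGATTCCC, a kappa B-like letter string, was present in those of H2-K1 and H2-D1 and in 0.301% of all.

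Libraries held 20.4 M to 30.8 M counts (M, 1e6). Values are given as counts scaled to a library total of 1e6 (CPM), and 1 count was worth about 0.041 CPM in the RC/+ replicate 4 library. Pkd1 itself ranged over 49.9 to 51.5 CPM in RC/+ and 52.0 to 65.2 CPM in RC/-, a difference that did not pass the test (0.21 on the log2 scale, SE 0.12, adjusted p = 0.173); the count covers the whole gene, so it does not check the floxed allele. The 8 libraries numbered 20 to 27 (3 of RC/- D18 and all 5 of RC/- D53) held skeletal muscle transcripts, with 6 muscle genes summing to between 147 and 194 CPM against 5.27 to 9.36 CPM in the other 16. Male and female mice, read from Xist and Ddx3y, were in every group (14 females and 10 males in all). The defining markers of kidney were present: 6 proximal tubule genes summed to between 6192 and 6702 CPM in RC/+. Of the 10 members, 7 lie on mouse chromosome 17, where they begin between 9.40 and 10.7 Mb beyond the end of Pkd1 itself. Cd74 lies on chromosome 18 (60803848 to 60812652), Ciita on chromosome 16 (10480059 to 10528418) and B2m on chromosome 2 (122147686 to 122153083), all on the plus strand of GRCm38.

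In cystic RC/- kidneys, RNA for both arms of antigen presentation was higher than in RC/+ kidneys. Of the 10 members, 8 rose, 0 fell, and H2-DMb1 and B2m did not pass the test, beside 25.5% of all 22570 tested genes that rose in this comparison. The median log2 fold change (log2FC) over the 10 members was 1.05, against 0.14 over all tested genes. The invariant chain gene Cd74 had the largest change of the members, with a log2FC of 1.46 (SE 0.37, adjusted p = 0.00262), and class I heavy chain genes changed by less than class II chain genes. In whole kidney, more cells that express these genes and more RNA per cell cannot be told apart. Scaling the libraries by TMM factors instead of totals shifted the median of all genes by 0.13, so the values here are read relative to an all-gene median of 0.14; with TMM factors 7 members rose, beside 17% of all genes that rose and 17.3% that fell.

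**Figure D1:**
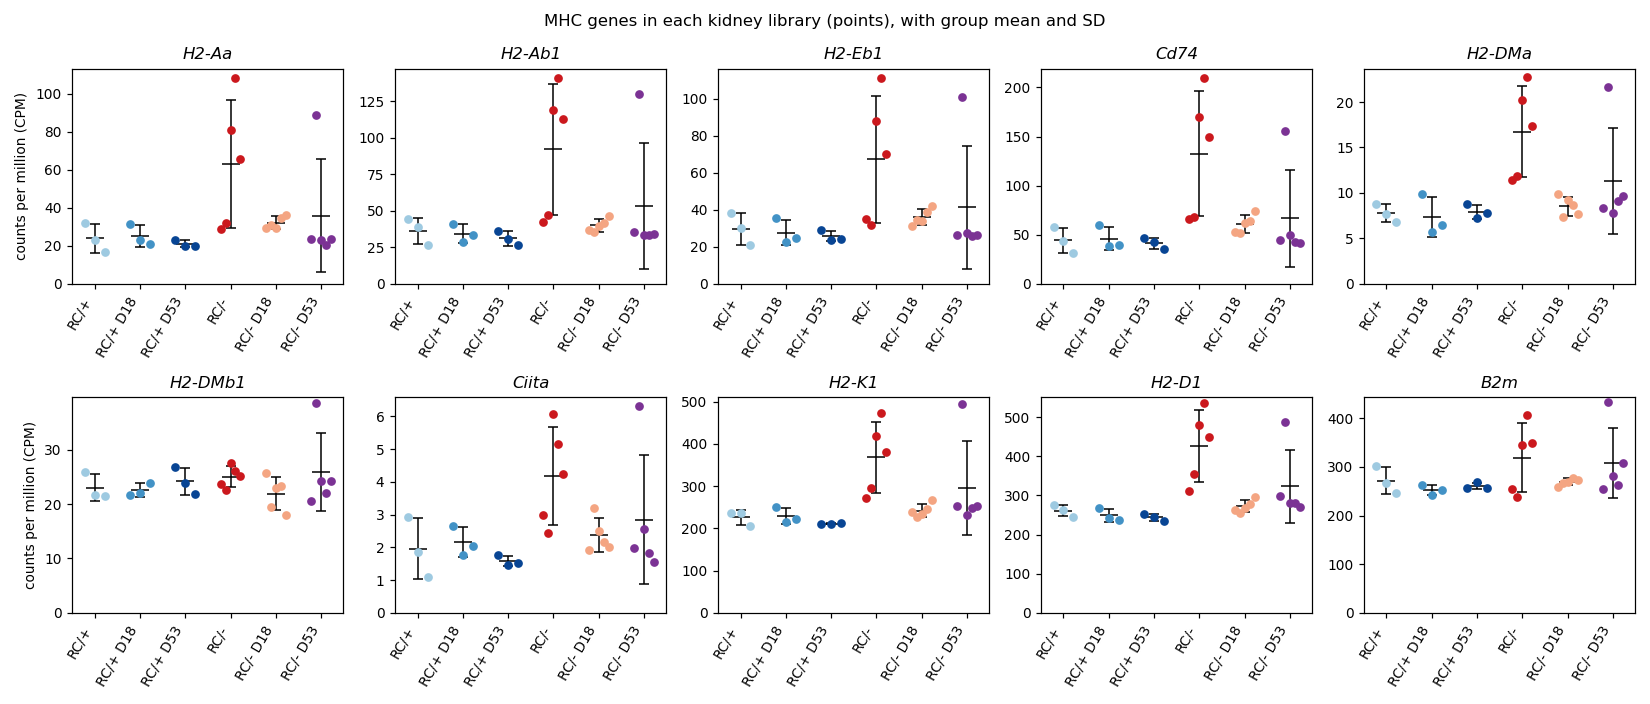
CPM of the 10 MHC genes in each of the 24 libraries (points), by group, with the group mean (bar) and SD (whiskers); each panel has its own linear axis from 0. In RC/- the class II chain points split between 2 libraries near the RC/+ level and 3 far above it, 1 library of RC/- D53 lies with the high ones, and H2-DMb1 and B2m overlap between RC/+ and RC/-.

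Among the class II chain genes, H2-Aa encodes the alpha chain of the A molecule. Its CPM was 31.9, 23.4 and 16.8 in the RC/+ libraries (replicates 4, 5 and 6) and 28.7, 32, 80.8, 108 and 65.7 in RC/- (replicates 13 to 17). The groups overlapped, because replicates 13 and 14 stood at the level of the highest control while replicates 15, 16 and 17 stood above every control. The log2FC was 1.26 (SE 0.39, adjusted p = 0.0129). H2-Ab1, which encodes the beta chain of the same molecule, was at 44.1, 38.6 and 26.5 CPM in RC/+ and at 42.2, 46.9, 119, 141 and 113 CPM in RC/-, in the same order of high and low libraries. Its log2FC was 1.20 (SE 0.38, adjusted p = 0.0137). H2-Eb1 encodes the beta chain of the E molecule, whose alpha chain gene is defective on the b haplotype of C57BL/6; its RNA ranged from 21 to 38.3 CPM in RC/+ and from 31.7 to 111 CPM in RC/- (log2FC 1.04, SE 0.38, adjusted p = 0.0324). H2-Ea-ps, the alpha chain pseudogene, had at most 1 count in any library. The chain genes therefore moved in one direction, and none of the 3 separated the groups completely.

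Of the loading genes, Cd74 and H2-DMa separated the groups and H2-DMb1 did not differ. Cd74 was at 57.7, 43.5 and 31.9 CPM in RC/+ and at 65.9, 68.1, 169.6, 209.5 and 149 CPM in RC/-, every cystic library above every control. H2-DMa, the alpha chain of the peptide exchanger, was at 8.78, 7.74 and 6.78 CPM in RC/+ and at 11.5, 11.8, 20.3, 22.8 and 17.4 CPM in RC/-. Again no library overlapped, and replicates 13 and 14 were the lowest cystic libraries (log2FC 1.05, SE 0.26, adjusted p = 0.00228). H2-DMb1, a beta chain of the same dimer, was at 25.9, 21.6 and 21.5 CPM in RC/+ and at 23.7, 22.6, 27.5, 26.2 and 25.2 CPM in RC/-. Its log2FC was 0.12 with a 95% interval from -0.18 to 0.43 (adjusted p = 0.55). H2-DMb2, the near copy, was at 1.76, 1.02 and 0.682 CPM in RC/+ and at 1.97, 1.65, 6.59, 6.76 and 6.81 CPM in RC/-, a log2FC of 1.82 (SE 0.53, adjusted p = 0.00867). Of the 100-base windows of H2-DMb1 exons, 11.3% also occur in another gene, H2-DMb2, so reads of the pair may have been split or dropped. H2-DMa shares 10.4% of its exon bases with Brd2 on the opposite strand, and strand use in the counting is not stated.

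Ciita, the transactivator gene, had the lowest level of the members. It was at 2.94, 1.86 and 1.08 CPM in RC/+ and at 2.99, 2.45, 6.08, 5.16 and 4.25 CPM in RC/-. Replicates 15 to 17 lay above all controls, as in the chain genes (log2FC 1.09, SE 0.36, adjusted p = 0.018). Replicate 14 lay below the highest control and replicate 13 just above it, the reverse of H2-Aa and H2-Ab1. H2-K1, a class I heavy chain gene, was at 236, 237 and 206 CPM in RC/+ and at 271, 297, 419, 474 and 379.6 CPM in RC/-. The groups did not overlap, and the change was smaller than that of any called class II member (log2FC 0.67, SE 0.18, adjusted p = 0.00447). H2-D1, the other heavy chain gene, gave 246 to 275 CPM in RC/+ and 311 to 535 CPM in RC/- (log2FC 0.68, SE 0.15, adjusted p = 0.0011). B2m, the light chain shared by class I molecules, was at 301, 267 and 247 CPM in RC/+ and at 255, 239, 344, 407 and 349.8 CPM in RC/-. Its groups overlapped on both sides, and its log2FC was 0.21 with a 95% interval from -0.09 to 0.51 (adjusted p = 0.283).

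Cd74, H2-DMa, H2-K1 and H2-D1, 4 of the 10 members, separated RC/- completely above RC/+, where 26% of all tested genes did. These were also the 4 members still called when the lowest control library, RC/+ replicate 6, was left out. Among all genes, 7185 were called in either direction without RC/+ replicate 6, against 8497 in the main fit. Without that library H2-Aa had a log2FC of 1.02 (adjusted p = 0.0847), H2-Ab1 of 0.99 (adjusted p = 0.0851), H2-Eb1 of 0.81 (adjusted p = 0.163) and Ciita of 0.74 (adjusted p = 0.157). H2-Eb1 also missed the threshold with TMM factors (adjusted p = 0.0751), and Ciita with the edgeR quasi-likelihood test (adjusted p = 0.061).

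Within the RC/- group the members did not vary independently. Relative to the RC/+ mean, replicate 13 was at 1.16 to 1.53 times and replicate 14 at 1.06 to 1.53 times for the class II genes other than H2-DMb1. The same 6 genes were at 2.61 to 3.82 times in replicate 15, 2.63 to 4.72 times in replicate 16 and 2.17 to 3.37 times in replicate 17. H2-K1 and H2-D1 were at 1.19 to 1.36 times in replicates 13 and 14 and at 1.68 to 2.09 times in replicates 15 to 17. B2m was at 0.94 and 0.88 times in replicates 13 and 14 and at 1.27, 1.497 and 1.29 times in replicates 15 to 17, so B2m, though not called, was also higher in replicates 15 to 17 than in 13 and 14. Replicates 13, 15 and 16 were female and replicates 14 and 17 male by their counts, so the low and the high libraries each held both sexes.

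**Figure D2:**
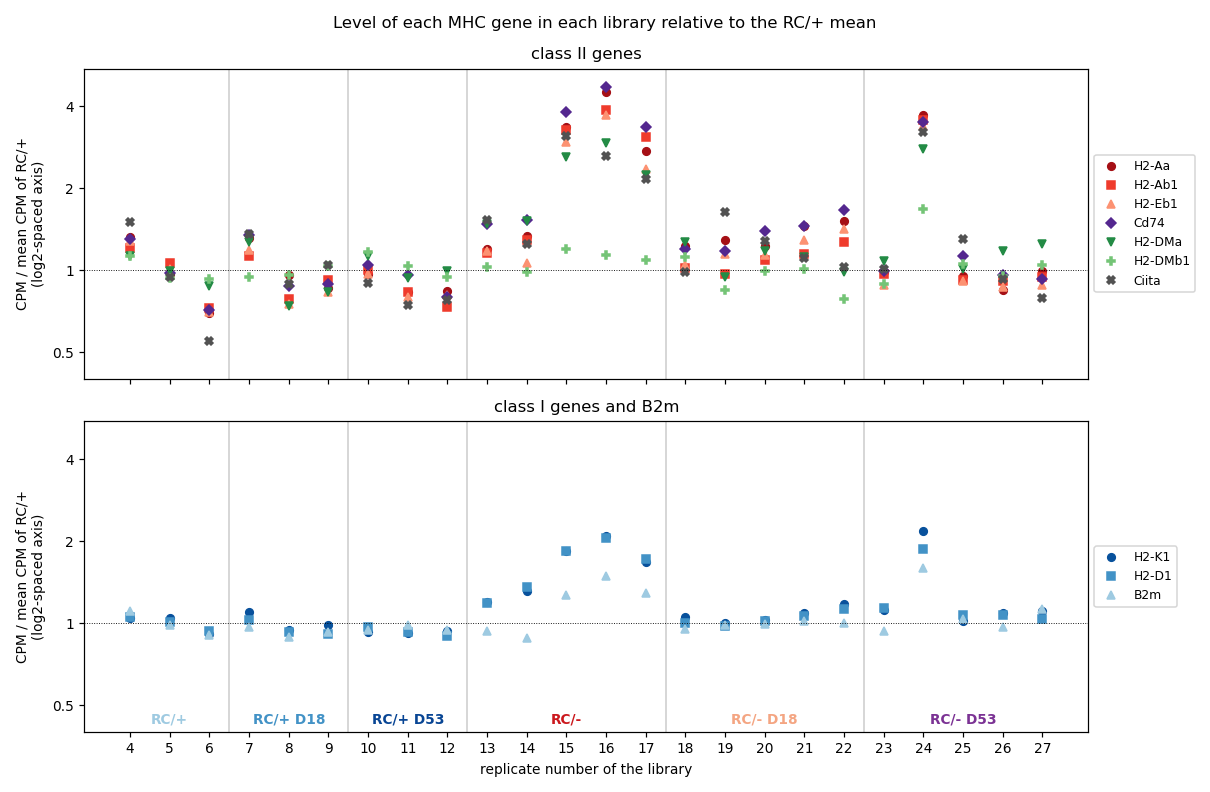
CPM of each MHC gene in each library divided by the mean CPM of the RC/+ group, on a log2-spaced axis, for class II genes (above) and for class I genes with B2m (below); columns are libraries by replicate number, and vertical lines part the groups. Replicates 15, 16, 17 and 24 stand above the rest for every gene but H2-DMb1, with H2-Aa at 3.37, 4.51, 2.74 and 3.71 times the RC/+ mean.

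Levels were compared between members per exon length. In RC/+, B2m was the most abundant at 896 ± 88.0 TPM (counts per exon length, scaled to 1e6 per library; SD, n = 3), followed by H2-D1 at 287 ± 15.2 TPM and H2-K1 at 219 ± 15.7 TPM. Cd74 came next at 74.9 ± 21.7 TPM, and H2-Eb1 (43.5 ± 12.6 TPM), H2-Ab1 (40.1 ± 9.82 TPM) and H2-DMb1 (38.8 ± 4.24 TPM) lay within one another's spread. H2-Aa was at 17.9 ± 5.60 TPM, H2-DMa at 6.39 ± 0.801 TPM and Ciita at 0.583 ± 0.276 TPM. In RC/- (n = 5), Cd74 reached 236 ± 109 TPM, H2-Ab1 108 ± 50.7 TPM, H2-Eb1 104 ± 50.6 TPM and H2-Aa 49.7 ± 25.5 TPM. H2-DMb1, at 44.9 ± 2.78 TPM, thus stood level with H2-Ab1 and H2-Eb1 and above H2-Aa in controls, and below H2-Ab1 and H2-Eb1 in cystic kidneys. These ranks rest on merged exon length, 1681 bases for H2-DMb1 and 3798 for H2-Aa. In CPM, H2-DMb1 (21.5 to 25.9) and H2-Aa (16.8 to 31.9) overlapped in RC/+. The ratio of H2-DMb1 to H2-DMa in TPM was 5.73 to 6.49 in RC/+ and 2.35 to 4.24 in RC/-, with no overlap. The ratio of B2m to the sum of H2-K1 and H2-D1 was 1.70 to 1.87 in RC/+ and 1.17 to 1.39 in RC/-, again without overlap. The ratio of H2-Aa to H2-Ab1 overlapped between these groups, at 0.409 to 0.488 in RC/+ and 0.394 to 0.520 in RC/-. It was 0.499 to 0.593 in RC/- D18, above every RC/+ library but overlapping the 0.418 to 0.544 of RC/+ D18. Across all 24 libraries the ratio was 0.394 to 0.593.

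With the miR-17 motif removed, cystic kidneys had lower levels of several members than RC/- kidneys. The study's legends name no founder for the RC/- libraries, so motif removal and founder line cannot be told apart here. In RC/- D18, 5 members fell (H2-Ab1, Cd74, H2-DMa, H2-K1 and H2-D1), 0 rose and 5 did not pass the test, beside 26.9% of all genes that fell. In RC/- D53, 5 members fell (H2-Aa, H2-Ab1, Cd74, H2-DMa and H2-D1), 0 rose and 5 did not pass, beside 18.9% of all genes that fell. Both comparisons use the same RC/- libraries, so they are not independent of each other or of the comparison with RC/+. The median log2FC of the 10 members was -0.74 in D18 and -0.64 in D53, against -0.10 and -0.08 over all tested genes; TMM scaling shifted the all-gene median in D18 by 0.11 and left 5 members lower there, beside 19.5% of all genes that fell, but left only 1 member lower in D53, beside 13.1%.

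**Figure D3:**
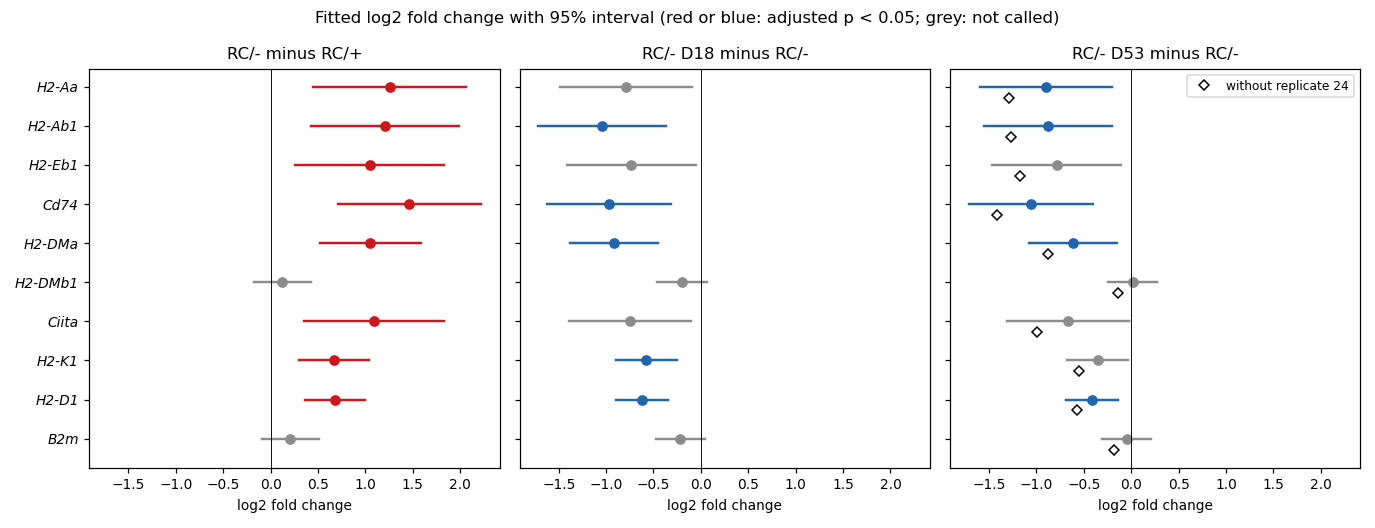
Fitted log2FC of each MHC gene (circles) with its 95% interval (lines) in 3 comparisons; red marks higher and blue lower at an adjusted p below 0.05, and open diamonds give the D53 value without replicate 24. The interval of H2-DMb1 spans 0 in each panel, and all 10 diamonds lie to the left of their circles.

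In RC/- D18 every library was below the 3 high RC/- libraries in each class II chain gene. H2-Ab1 was at 37.1, 35.2, 39.9, 41.8 and 46.3 CPM in RC/- D18 (replicates 18 to 22), all below the 3 high RC/- libraries and around replicates 13 and 14. Its log2FC from RC/- was -1.04 (SE 0.33, adjusted p = 0.0127). Cd74 was at 53.3, 52.1, 62, 64.4 and 73.8 CPM, which overlapped the 2 lower RC/- libraries (log2FC -0.97, SE 0.32, adjusted p = 0.0162). H2-DMa was at 9.86, 7.33, 9.18, 8.68 and 7.68 CPM, below every RC/- library (log2FC -0.92, SE 0.23, adjusted p = 0.00188). H2-K1 was at 237.8, 226, 233, 246 and 267 CPM and H2-D1 at 256 to 295 CPM, both below every RC/- library. Their log2FC values were -0.58 (SE 0.16, adjusted p = 0.00433) and -0.62 (SE 0.13, adjusted p = 0.000554). In all, 3 members lay wholly below RC/-, beside 18.8% of all tested genes. The other class II genes gave log2FC values of -0.79 for H2-Aa (adjusted p = 0.0648), -0.73 for H2-Eb1 (adjusted p = 0.0775), -0.75 for Ciita (adjusted p = 0.0566) and -0.20 for H2-DMb1 (adjusted p = 0.223). The number of members called lower was 8 without RC/- replicate 13 and 9 without RC/- replicate 14, and Cd74 missed the threshold without replicate 16 (adjusted p = 0.0603). Among all genes, the fits without replicates 13 and 14 called 9055 and 9235 in either direction, against 9305 in the main fit. The D18 libraries without muscle transcripts (replicates 18 and 19) overlapped those with them (20 to 22) in H2-DMa and H2-K1 and lay below them in H2-Ab1 and Cd74, by the values above; the part of the muscle transcripts in this was not tested.

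In RC/- D53, replicate 24 stood apart from the other 4 libraries. H2-Aa was at 23.7, 89.0, 22.9, 20.3 and 23.9 CPM (replicates 23 to 27), and replicate 24 exceeded the RC/- replicates 13, 14, 15 and 17. Cd74 was at 44.3, 155, 50.1, 42.8 and 41.4 CPM, and without replicate 24 every D53 library lay below every RC/- library. Ciita was at 1.98, 6.31, 2.57, 1.83 and 1.55 CPM, and its highest value of all 24 libraries was in replicate 24. H2-K1 was at 253, 494, 231, 247 and 252 CPM, H2-DMb1 at 20.6, 38.6, 24.2, 22 and 24.2 CPM, and B2m at 255, 433, 281, 263 and 308 CPM. For these 3 genes, as for Ciita, no other library of any group was as high as replicate 24. Because of this library 0 members lay wholly below RC/-, beside 11.8% of all genes.

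The D53 call count rested on the fit chosen. The called log2FC values were -0.90 for H2-Aa (SE 0.34, adjusted p = 0.0468), -0.88 for H2-Ab1 (SE 0.33, adjusted p = 0.0436), -1.06 for Cd74 (SE 0.32, adjusted p = 0.0132), -0.62 for H2-DMa (SE 0.23, adjusted p = 0.0398) and -0.41 for H2-D1 (SE 0.13, adjusted p = 0.0219). H2-Eb1 (-0.79, adjusted p = 0.0747), Ciita (-0.67, adjusted p = 0.113) and H2-K1 (-0.35, adjusted p = 0.0944) were on the other side of the threshold, and the changes of H2-DMb1 (0.02) and B2m (-0.05) were near 0. The edgeR quasi-likelihood test and DESeq2 each called 1 member. Leaving out any 1 of the RC/- replicates 15, 16 and 17, or of the D53 replicates 25, 26 and 27, left 1 member, and leaving out D53 replicate 23 left 2. Among all genes, the edgeR test called 6343, DESeq2 6685 and the fits with 1 library left out 5879 to 6826, against 6805 in the main fit. A fit with libraries 20 to 27 as a covariate called 0 members. In that fit the 5 members called above had log2FC values of -1.05 (H2-Aa), -1.12 (H2-Ab1), -1.39 (Cd74), -0.61 (H2-DMa) and -0.52 (H2-D1). Over all genes it called 1796, against 6805 without the covariate. All 5 D53 libraries and none of RC/- hold muscle transcripts, so in this comparison that difference is separated from genotype by D18 alone. Without replicate 24, in contrast, 8 members were lower, beside 16.8% of all genes: Cd74 at -1.42 (adjusted p = 0.000236), H2-Aa at -1.29 (adjusted p = 0.000868), H2-Ab1 at -1.27 (adjusted p = 0.000703), H2-Eb1 at -1.17 (adjusted p = 0.00162), Ciita at -0.996 (adjusted p = 0.00668), H2-DMa at -0.88 (adjusted p = 0.000749), H2-D1 at -0.57 (adjusted p = 0.000263) and H2-K1 at -0.55 (adjusted p = 0.000612). H2-DMb1 (-0.14, adjusted p = 0.333) and B2m (-0.18, adjusted p = 0.248) still did not pass. Why replicate 24 stands apart was not tested.

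In noncystic kidneys no member passed the test after the motif was removed. H2-Aa was at 31.6, 23 and 20.8 CPM in RC/+ D18 and at 23.3, 20 and 20.2 CPM in RC/+ D53, within or near the RC/+ range. Log2FC values of the 10 members ran from -0.11 (H2-DMa) to 0.22 (Ciita) in D18 and from -0.20 (H2-Ab1) to 0.07 (H2-DMb1) in D53. All genes together gave 0.00443% called in D18 and 0% in D53. With 3 libraries a group the interval for H2-Ab1 in D18 ran from -0.93 to 0.81, so changes inside that interval were not resolved.

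The edited cystic groups were also set against their own noncystic controls. No member passed the test between RC/- D18 and RC/+ D18, where 0.266% of all genes did, or between RC/- D53 and RC/+ D53, where 2.60% did. H2-K1 and H2-D1 nevertheless lay higher in all 5 RC/- D53 libraries than in any RC/+ D53 library, with 231 to 494 against 209 to 212 CPM for H2-K1 and 270.4 to 488 against 235 to 253 CPM for H2-D1, replicate 24 being the highest in both. That is 2 of 10 members, beside 8.12% of all tested genes that separated upward in this comparison. The largest member value in D18 was that of Cd74 (log2FC 0.43, SE 0.37, adjusted p = 0.829). In D53 it was that of Ciita (0.62, SE 0.36, adjusted p = 0.49), which was 0.29 without replicate 24 (adjusted p = 0.77). Between the edited lines, RC/- D53 and RC/- D18, no member and 0.266% of all genes passed. A test of whether the cystic difference itself changed, the interaction of genotype and editing, was negative in sign for all 10 members in D18 and for 9 in D53, and no member passed in either, where 17.1% and 11.3% of all genes did. Cd74 had the largest interaction value, -1.04 in D18 (SE 0.52, adjusted p = 0.186) and -0.996 in D53 (SE 0.52, adjusted p = 0.233); without replicate 24 the D53 value was -1.36 (adjusted p = 0.0362) and that of H2-DMa was -0.91 (adjusted p = 0.0435). In these 7 fits with no call by limma-trend, the members at an unadjusted p below 0.05 numbered 2 in RC/- D53 against RC/+ D53, 3 in the D18 interaction and 0 in the rest, and the edgeR quasi-likelihood test and DESeq2 called 0 members in each. For these genes, then, a difference between the cystic effect with and without the motif was not shown.

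The rest of the pathway was followed in lists of genes. They are to be read against the shares of all genes given above (25.5% higher in RC/-, 26.9% lower in D18 and 18.9% lower in D53). In the other direction, 2744 of all 22570 tested genes were lower in RC/-, 3238 higher in D18 and 2543 higher in D53. The products of the immunoproteasome list, catalytic subunits and activators, help cut proteins into peptides suited to class I. Of this list, 5 of 5 genes rose in RC/-, 5 of 5 fell in D18 and 4 of 5 fell in D53 (4, 5 and 3 with TMM factors). Psmb8, a catalytic subunit, was at 6.70 to 7.64 CPM in RC/+ and 10.7 to 22.7 CPM in RC/- (log2FC 1.10, adjusted p = 0.000953), and Psmb10, another, rose by 0.88 on the log2 scale (adjusted p = 2.64e-05). The abundant activator genes Psme1 (0.43, adjusted p = 0.000477) and Psme2 (0.62, adjusted p = 6.26e-06) rose by less. Of the 3 constitutive subunits that the catalytic subunits of the list replace, 1 rose, Psmb5 (0.23, adjusted p = 0.0189). Psmb6 (0.15) and Psmb7 (-0.13) did not pass. With TMM factors 0 of the 3 constitutive subunits rose and 1 fell.

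Among 9 genes of class I peptide loading, 4 rose and 0 fell in RC/-, 5 fell in D18 and 3 fell in D53; with TMM factors 4 rose, 4 fell in D18, and in D53 2 were lower and 2 higher. The peptide transporter gene Tap1 was at 14.3 to 17.4 CPM in RC/+ and 21.5 to 37.5 CPM in RC/- (log2FC 0.93, adjusted p = 0.00295), and Tapbp, which bridges transporter and class I, rose by 0.79 (adjusted p = 3.8e-06). The general chaperone Calr (0.13, adjusted p = 0.211) and the disulfide isomerase Pdia3 (-0.02, adjusted p = 0.892) did not pass. Nonclassical class I genes were divided: of 13, 3 rose and 3 fell in RC/-, with a median log2FC of 0.01 (2 and 5 with TMM factors). H2-Q4, named for its correlations given further on, was among those that rose (0.45, adjusted p = 0.0433). H2-Q6 was at 75.03 to 109 CPM in RC/+ and at 22.4 to 48.4 CPM in RC/- (log2FC -1.38, adjusted p = 3.17e-07), and H2-Q7 fell as well (-1.08, adjusted p = 2.76e-06); both were higher in D18 (0.95 and 0.71) and D53 (1.32 and 0.96) than in RC/-. H2-Q6 and H2-Q7 are near copies of each other and resemble the classical genes (0.957% of H2-K1 windows match H2-Q genes), so their split is uncertain. Fcgrt, the neonatal Fc receptor and the most abundant of the list, gave -0.29 (adjusted p = 0.0746).

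For class II, the factors of the promoter module moved little. Of 7, 4 rose and 1 fell in RC/-, with a median log2FC of 0.28 against 0.14 over all genes, and with TMM factors 1 rose and 1 fell. Rfx5, which binds the X box, gave 0.41 (adjusted p = 0.0223), the Y-box subunit genes Nfya 0.39 (adjusted p = 0.000951) and Nfyc -0.28 (adjusted p = 0.0257), and Creb1 0.28 (adjusted p = 0.00459). Of 6 genes of class II antigen processing, 1 rose and 2 fell (1 and 3 with TMM factors). The cathepsin S gene Ctss, which trims the invariant chain in professional presenting cells, rose by 1.12 (adjusted p = 1.71e-05), the cathepsin L gene Ctsl, abundant in epithelium, fell by 0.44 (adjusted p = 0.00482), and Ctsb gave 0.10 (adjusted p = 0.243). Of 4 tested further class II genes, H2-DMb2 rose as above, while H2-Ob, a chain gene of a dimer that restrains H2-DM (-0.004, adjusted p = 0.994), and H2-Eb2, a paralog of H2-Eb1 (0.54, adjusted p = 0.334) did not pass.

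All 9 tested genes of the interferon gamma axis rose in RC/-, with a median log2FC of 0.62; with TMM factors 5 rose. In D18 8 fell and in D53 6 fell (5 and 4 with TMM factors). The transcription factor gene Irf1 rose by 1.09 (adjusted p = 8.82e-07), the feedback inhibitor Socs1 by 0.71 (adjusted p = 0.0232), the receptor chain Ifngr1 by 0.70 (adjusted p = 9.98e-05) and the kinase gene Jak1 by 0.25 (adjusted p = 0.00748). The ligand gene Ifng had 0 to 3 counts in each library and was not tested. Of 6 tested costimulation and checkpoint genes 3 rose: Icosl (1.04, adjusted p = 2.23e-07), Cd86 (1.004, adjusted p = 0.000959) and Cd83 (0.51, adjusted p = 0.0171).

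**Figure D4:**
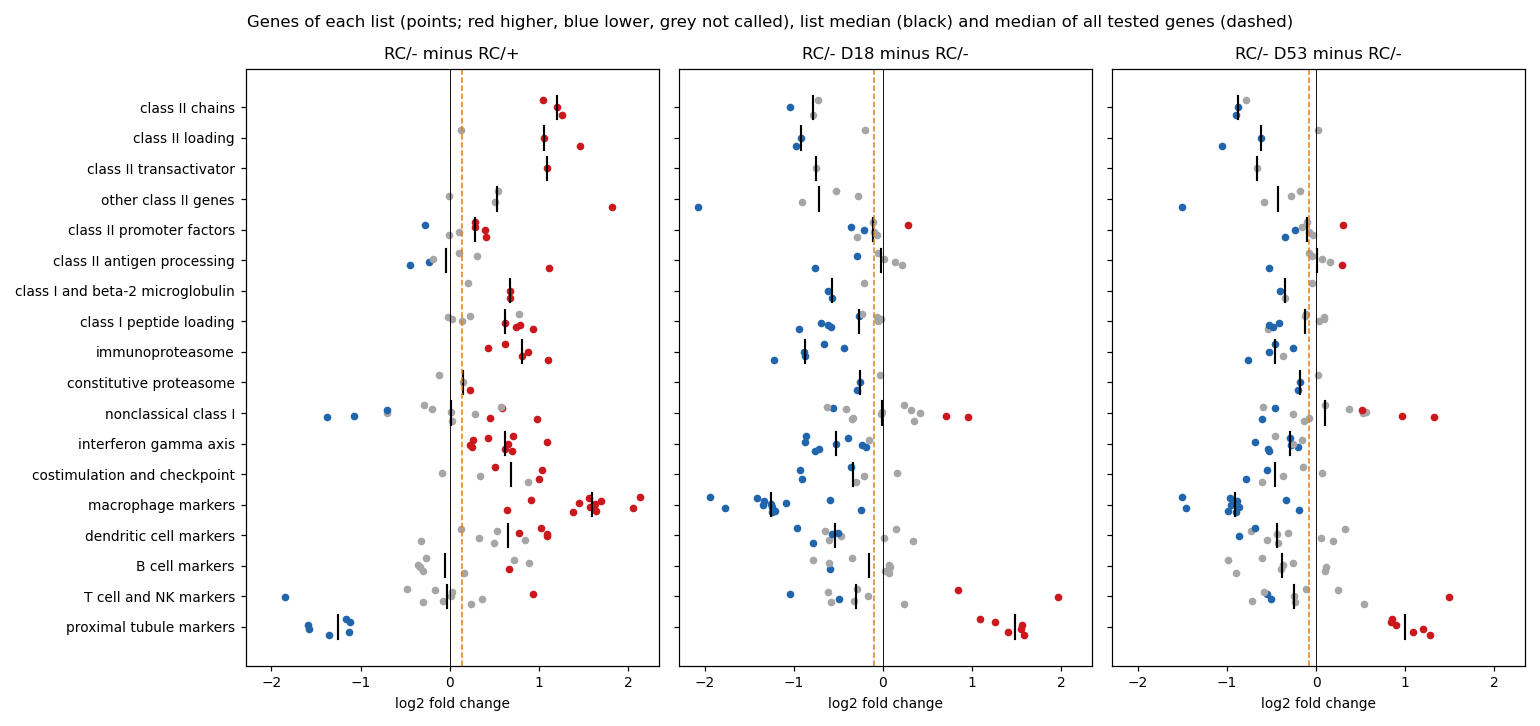
Log2FC of each tested gene (points) in 18 lists for 3 comparisons, with the list median (black bar) and the median of all tested genes (dashed line); red is higher and blue lower at an adjusted p below 0.05, grey is not called. Class II chains, the immunoproteasome and macrophage markers lie right of 0 in RC/- against RC/+ and left of 0 in both edited comparisons, while proximal tubule markers lie on the opposite side.

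Markers of presenting cells were measured beside the members. All 12 macrophage markers rose in RC/-, with a median log2FC of 1.599, and all 12 fell in both D18 and D53 (median -1.25 and -0.91; 11 and 10 with TMM factors). Their summed level was 298 to 317 CPM in RC/+, 639 to 1160 CPM in RC/-, 370.1 to 404 CPM in RC/- D18 and 408 to 560.0 CPM in RC/- D53. Lyz2, the macrophage lysozyme gene, and Mrc1, the mannose receptor gene, rose by 2.13 (adjusted p = 1.75e-10) and 2.05 (adjusted p = 7.42e-09), and Csf1r, the growth factor receptor gene of the lineage, by 0.65 (adjusted p = 1.6e-06). The pan-leukocyte gene Ptprc rose by 0.74 (adjusted p = 0.000364). Of 10 dendritic cell markers 4 rose, among them Cd24a (1.02, adjusted p = 3.67e-09), which tubule epithelium also expresses, Itgax (1.09, adjusted p = 0.000193) and Cd209a (1.09, adjusted p = 0.00873), while Zbtb46 gave -0.32 (adjusted p = 0.155); the list summed to between 433 and 479 CPM in RC/+ and 784 and 1026 CPM in RC/-, nearly all of it Cd24a (404 to 438 and 747 to 984 CPM).

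Lymphocyte markers were at low counts. The 8 B cell markers summed to 3.49 to 10.5 CPM in RC/+ and 5.24 to 9.11 CPM in RC/-, with 1 called higher, Cd79b (0.66, adjusted p = 0.0255), and 0 with TMM factors. The 10 T cell and NK markers summed to 8.91 to 15.4 CPM in RC/+ and 9.63 to 13.98 CPM in RC/-, with Lck higher (0.94, adjusted p = 0.00236) and Cd8a lower (-1.85, adjusted p = 1.4e-05), and Cd3e had at most 8 counts. Proximal tubule markers moved the other way: 6 of 6 fell in RC/-, to sums of 1418 to 3517 CPM. All 6 were higher in D18 and in D53 than in RC/-. Of all 22570 tested genes, 2744 fell in RC/-, 3238 were higher in D18 and 2543 were higher in D53. Of 6 endothelial markers 0 rose and 4 fell in RC/-, and of 7 markers of other nephron segments 2 rose and 5 fell. The part that shifts in macrophages, dendritic cells or tubule cells had in the MHC values was not tested.

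Within RC/-, replicates 13 and 14 were lowest and replicate 16 highest in both the macrophage and the class II chain sums. Across all cystic groups together, the macrophage level and the class II level did not rank the libraries alike. In RC/- replicates 13 and 14 the macrophage markers summed to 715 and 639 CPM, above every library of the edited groups, yet the 3 class II chain genes summed to 106 and 111 CPM, within the RC/+ range of 64.2 to 114 CPM. In RC/- replicates 15, 16 and 17 the macrophage sums were 872, 1160 and 955 CPM and the chain sums 288, 360.1 and 248 CPM. In RC/- D53 replicate 24 the macrophage sum was 560.0 CPM, below all 5 RC/- libraries, and the chain sum 320 CPM, above all of them but replicate 16. Per count of C1qa, a macrophage complement gene, H2-Ab1 was at 0.611 to 1.13 in RC/+, at 0.428, 0.548, 0.933, 0.80 and 0.841 in RC/-, and at 1.68 in replicate 24, the highest ratio of the 24 libraries. No RC/- library therefore exceeded the RC/+ range in H2-Ab1 per C1qa. Per count of Csf1r, however, the RC/- replicates 15, 16 and 17 were at 0.843, 0.865 and 0.688 and replicate 24 at 0.876, above the highest RC/+ library (0.477), so the reading depends on the marker used.

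**Figure D5:**
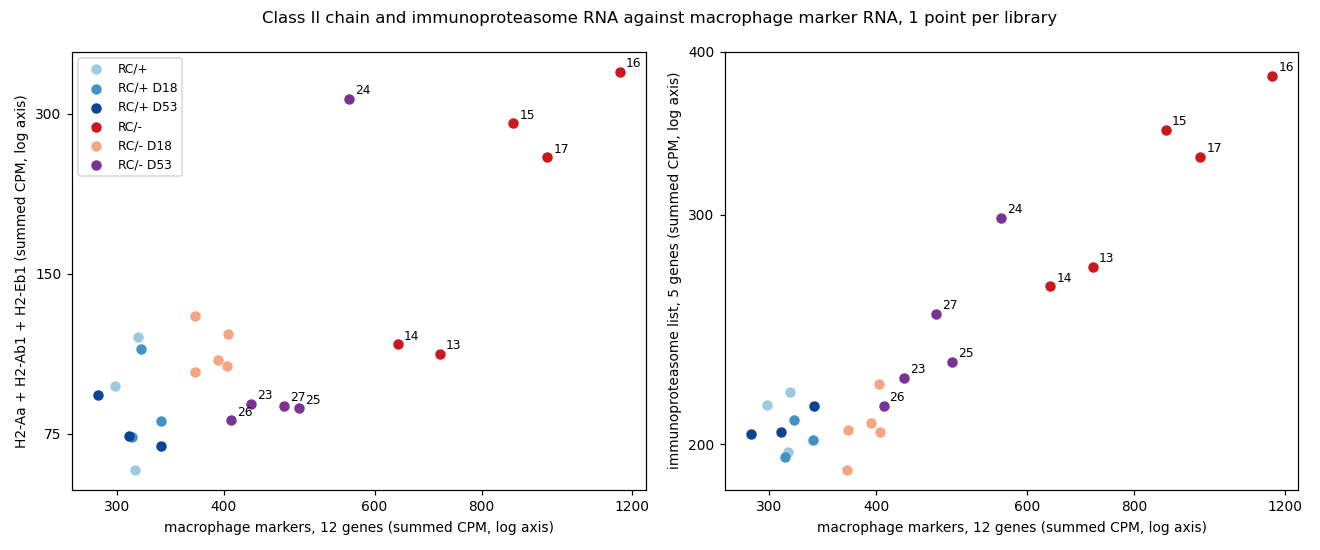
Summed CPM of the class II chain genes (left) and of 5 immunoproteasome genes (right) against the summed CPM of 12 macrophage markers, log axes, 1 point per library, coloured by group; RC/- and RC/- D53 libraries carry their replicate number. Replicates 13 and 14 have macrophage sums of 715 and 639 CPM with chain sums of 106 and 111 CPM, whereas replicate 24 has 560.0 CPM with a chain sum of 320 CPM.

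Genes with the pattern most like the members were sought over all 24 libraries by the correlation of log2 CPM, given as a description because the libraries share groups and replicate 24. With the mean standardised level of H2-Aa, H2-Ab1, H2-Eb1 and Cd74, the 5 highest Pearson correlations among nonmembers were those of Ifi47 (0.904), Slfn8 (0.901), H2-DMb2 (0.901), Mpeg1 (0.899) and Tap2 (0.895). With H2-K1, H2-D1 and B2m they were Ifi47 (0.941), Psmb9 (0.933), Psmb8 (0.932), Mpeg1 (0.927) and Tap1 (0.92). With Ciita they were Tap2 (0.863), Trim30d (0.858), H2-Q4 (0.858), Gm1966 (0.857) and Cxcl10 (0.857). Among the members, H2-Ab1 correlated with Cd74 at 0.98, with H2-K1 at 0.97 and with Ciita at 0.90, and H2-DMb1 correlated with the other 9 at 0.54 (Cd74) to 0.70 (B2m). Among the 9 members other than H2-DMb1 the correlations ran from 0.788 (Ciita with B2m) to 0.99 (H2-Aa with H2-Eb1), each above every correlation of H2-DMb1.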

How the data were processed

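The deposited table holds whole-number read counts per gene for 54532 Ensembl genes in 24 libraries, which per the study's methods the authors trimmed with Trim Galore 0.6.3, aligned to GRCm38 and counted with STAR 2.5.3a on Ensembl release 94; the strand setting is not given in the sources used here. The number of unused columns was 0, and 343 genes without a symbol held at most 0.0261% of a library. Library totals were 20.4 M to 30.8 M counts (M, 1e6). Libraries within a group differed by more than counting noise in all 39 pairs (chi-square per degree of freedom 8.45 to 48.2); separate animals are given, so p-values measure the spread between mice.

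Log2 CPM on library totals (prior count 2, edgeR 4.0.16) was tested with limma-trend (limma 3.58.1, R 4.3.3) over the 22570 genes whose average log2 CPM reached -3, in 1 model with 6 group means and no covariate, two-sided, with Benjamini-Hochberg adjustment within each of 8 comparisons and 2 interactions, called at 0.05. The study's methods name this test and filter. Steps were tested on simulated data. TPM used merged exon lengths of GENCODE M21 (54495 identifiers matched). Alternatives were TMM and DESeq2 size factors, the edgeR quasi-likelihood test, DESeq2 1.42.0, other filters and prior counts, covariates, and leaving out each library. Members and lists were chosen with earlier results of these data known. Named genes were all members and, per list, the 2 with the highest mean CPM and the 2 with the largest absolute log2 fold change in RC/- against RC/+; H2-Ea-ps, Ifng, C1qa, Cd3e and the genes of the closing section were named after their values were seen.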

Additional observations from a re-analysis of the deposited data

Results flagged for a closer look

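Of 30 checks for a library far from its group (10 genes in 3 cystic groups of 5 mice, Dixon's gap test at 0.71), 9 marked a library, and all 9 marked replicate 24 of RC/- D53; chance marks about 1 in 20 such checks, and these 9 genes share 1 library. In replicate 24 H2-Aa was at 89.0 CPM, H2-Ab1 at 129.8 CPM, H2-Eb1 at 101 CPM, Cd74 at 155 CPM and H2-DMa at 21.7 CPM. H2-DMb1 was at 38.6 CPM, Ciita at 6.31 CPM, H2-K1 at 494 CPM and H2-D1 at 488 CPM. For B2m, at 433 CPM, the gap was 0.704 of the range and just short of the limit. The other 4 libraries of the group ranged over 20.3 to 23.9 CPM for H2-Aa and 231 to 253 CPM for H2-K1. Its 6 muscle genes summed to 194 CPM, the highest of the libraries numbered 20 to 27 (147 to 194 CPM), and its library was male by its counts, as was replicate 23 of the same group. The part of these in the result was not tested. No interaction of a member passed the test.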

How the results depend on the processing

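No paired analysis was possible because each mouse has its own replicate number and no number is shared between groups. No value of a called member changed sign under any alternative. The number of members called in RC/- against RC/+ was 8, from 6 to 8 under other settings with all libraries, and from 4 to 8 when 1 library was left out. In RC/- D18 against RC/- it was 5. A limit of 1 on the absolute log2 fold change gave 1. Leaving out 1 library gave 4 to 9 members, beside 8317 to 9235 of all genes. In RC/- D53 against RC/- it was 5; TMM factors, DESeq2 size factors, the edgeR quasi-likelihood test, DESeq2 and the log2 limit each gave 1, no filter on low counts gave 2, and fits on the 2 groups alone or with libraries 20 to 27 as a covariate gave 0. Leaving out 1 library gave 1 to 8, with 8 without replicate 24. Among all genes, TMM factors called 6344, the 2 groups alone 5995 and fits with 1 library left out 5879 to 6826. The covariate for libraries 20 to 27 with replicate 24 left out, chosen after seeing the data, gave 4 in D53 (1647 over all genes). It gave 2 in the D18 interaction (H2-K1 and H2-D1). The D18 interaction had 1 call on its groups alone and 0 to 1 with 1 library left out, and the D53 interaction 0 to 2. Over all genes, the number called in RC/- D53 against RC/- was 6805, or 1796 with libraries 20 to 27 as a covariate, and in the D53 interaction 2545, or 403 with that covariate; in the D18 interaction these were 3858 and 2337. A limit of 1 on the log2 fold change left 2653 of 8497 genes in RC/- against RC/+, 2515 of 9305 in D18 and 1481 in D53. The cause of these differences was not tested. Of the single-member values under alternatives, 2072 stayed on their side of the threshold, 85 lost a call and 23 gained one. The remaining comparisons had 0 calls throughout. Groups of 3 mice and low counts of Ciita limit what could be resolved.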

Other observations

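Genes that were highest in RC/- D53 replicate 24 were listed after its values were seen, as a description of 1 library with no test. With at least 30 counts there, 17 genes were more than 1.5 times above every other library. Among them Tgtp1 was at 22 CPM against at most 6.72 CPM elsewhere, Tgtp2 at 16 against 6.33 CPM, Irgm2 at 56.8 against 29.1 CPM, Igtp at 41.6 against 22 CPM, Irgm1 at 95 against 58.7 CPM, Gbp4 at 19.1 against 12.3 CPM and Gbp10 at 2.32 against 0.973 CPM, all genes of interferon-inducible GTPases. Nlrc5, the class I counterpart of Ciita, was at 9.81 CPM against at most 3.59 CPM elsewhere. Of the members, H2-DMb1 was at 38.6 against 27.5 CPM. Tap1, at 43.8 CPM, and Psmb9, at 18.2 CPM, were above all RC/- libraries as well (highest 37.5 and 15.2 CPM). Ifng had 0 counts in this library. Such counts per library were not particular to it: RC/- replicate 16 had 149 genes and RC/- D53 replicate 27 had 42 genes above every other library by the same measure.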
